A study of Caenorhabditis elegans with 15 samples.

Results

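The core histone genes of Caenorhabditis elegans were followed through pull-downs of the cap-binding proteins IFE-1 and IFE-3. Members were taken by WormBase ID as the his genes numbered from his-1 to his-68, without the linker histone his-24, which gives 67 IDs. Of these, 66 were listed among the 46934 genes of the table, and his-23 was not analysed here. The family was selected on measured values of these same libraries, in which it stood higher in the IFE-3 than in the IFE-1 pull-down. All differences that involve an IFE-1 or IFE-3 pull-down are therefore given as a description, without a p-value for any gene. Counts of members called, or at an unadjusted p under 0.05, stand beside the share over all genes for them. Nothing is read from these counts. Tests are given only between the tag-only controls and total RNA, which did not enter that choice.

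Sequencing of the RNA held by a pulled-down protein is called RIP-seq. Strain KX155 carried, by CRISPR editing of the native genes, mKate::ife-1 on chromosome III and GFP::ife-3 on chromosome V, and from its frozen whole worms came the IFE-1 RIP (RFP trap beads), the IFE-3 RIP (GFP trap beads) and total RNA of the unenriched lysate. Strain LP307, with an mKate::PH insertion on chromosome II, gave the mKate control RIP on RFP beads, and strain LP306, with a GFP::PH insertion on chromosome II, gave the GFP control RIP on GFP beads. The sources used here do not name the promoters of these PH insertions. All worms were grown for 3 days at 20 °C on OP50 and chicken egg plates, and each of the 5 groups holds 3 biological replicates per the labels. The RIPs differ from each other in paralog, tag and beads at once, and controls differ from total RNA in strain and treatment at once, so these cannot be told apart. The series design states that mRNA was poorly represented in the tag-only RIPs and that the submitters left them out of their own analysis.

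Values are TPM, an abundance per transcript length with a fixed sum per library, divided here by a factor per library (scaled TPM). TPM keeps no sequencing depth, so the depth is unknown. The libraries held 10066 to 14306 genes at 1 TPM or more, and their 10 most abundant genes took 57.8% to 76.0% of all TPM. In whole-worm RNA, fewer cells of a type and less RNA per cell cannot be told apart. The tagged genes and tissue markers could not be matched to IDs and were not analysed here. GFP control replicate 3 stood apart from both other GFP controls in histone level. Median log2 differences of the whole family that rest on it are given with and without it. Group means, class and cluster values, single-gene differences and counts of overlap that involve the GFP control are given only with it.

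Core histones H2A, H2B, H3 and H4 form the protein spool around which DNA is wrapped in the nucleosome. Their replication-dependent genes lie in clusters of short, intronless units and are expressed mainly in cells that copy their DNA. In most animals the mRNAs end in a stem-loop in place of a poly(A) tail, and the stem-loop binding protein, CDL-1 in C. elegans, holds this end. Like other mRNAs they carry a 5′ cap, the structure that eIF4E proteins such as IFE-1 and IFE-3 bind to start translation. IFE-1 is best known from germ cells, where it is found in P granules and is needed for sperm formation.

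RefSeq names and positions (assembly WBcel235) were found for 65 of the 66 listed members, all but his-36. Classes were read from the gene length, through genes of known class (his-1 for H4, his-2 for H3, his-3 for H2A, his-4 and his-11 for H2B). There were 15 genes of 312 bases (H4), 15 of 369 or 372 bases (H2B), 15 of 384 bases (H2A) and 15 of 411 bases (H3). These lengths equal the histone coding lengths with their stop codon, so in these 60 genes the annotation holds a coding exon and no intron or UTR. The remaining 6 members were his-35, his-37, his-39, his-41 and his-57, whose spans differ from these lengths, and his-36. The placed members lay in 12 clusters, with 26 genes on chromosome V, 22 on IV, 13 on II, 2 on X and 2 on I.

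Many copies could not be told apart. In 14 sets, which hold 35 members, all genes of a set had identical values in all 15 libraries, so that the 66 members gave 45 distinct profiles. Each set stayed within a single class and held no gene from outside the family. The largest sets had 4 genes, namely the H2A genes his-19, his-21, his-51 and his-53 and the H2B genes his-20, his-22, his-52 and his-54. The sets of 3 were his-9, his-13 and his-25 (H3), his-10, his-14 and his-26 (H4) and his-11, his-15 and his-44 (H2B). The rest were pairs, such as his-45 with his-55 (H3), his-46 with his-56 (H4), his-47 with his-65 (H2A) and his-58 with his-66 (H2B). Each such value is uncertain for the single gene, and near-identical copies with unequal values are uncertain too. Some sets reach across gene clusters, so values of those clusters are not independent.

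Core histone genes took 12.5%, 10.4% and 7.58% of all TPM in the IFE-3 RIP replicates 1, 2 and 3, and 1.83%, 2.72% and 3.79% in the same replicates of the IFE-1 RIP. In total RNA the share was 3.38%, 3.11% and 3.53%. It was 2.14%, 2.83% and 6.45% in the GFP control RIP and 1.05%, 1.81% and 2.19% in the mKate control RIP. Every IFE-3 RIP library was above all libraries of the other 4 groups. The IFE-1 RIP, total RNA and GFP control ranges overlapped, whereas every mKate control was below all total RNA libraries. By mean the order was IFE-3 RIP (10.1% ± 2.45), GFP control RIP (3.81% ± 2.32), total RNA (3.34% ± 0.214), IFE-1 RIP (2.78% ± 0.982) and mKate control RIP (1.68% ± 0.582; SD, n = 3 each). The 3 groups in the middle of this order did not differ beyond their spread. GFP control replicates 1 and 2 were below every total RNA library, so the place of this group above total RNA rests on replicate 3. In mean summed scaled TPM the GFP control RIP was instead at 0.711 times total RNA.

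**Figure D1:**
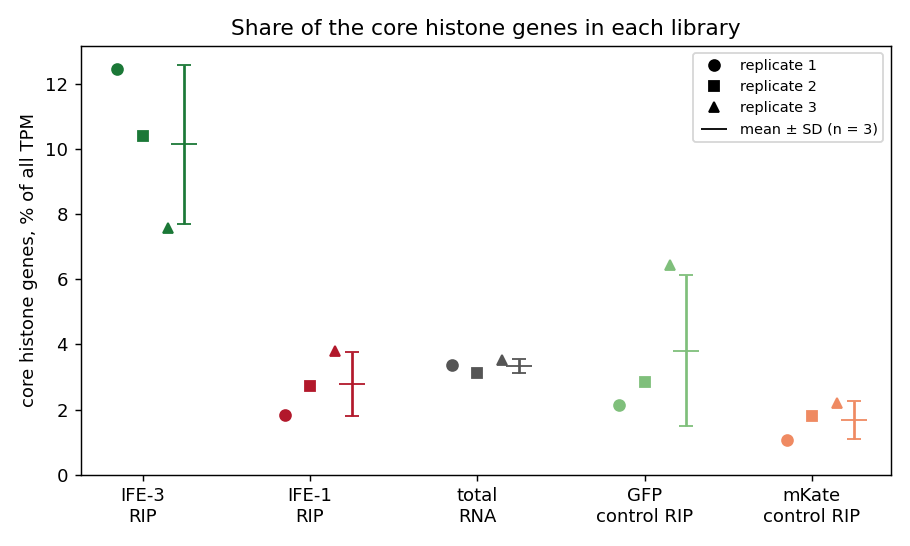
Share of all TPM taken by the core histone genes, in percent, in each library of the 5 groups; marker shapes give the replicate number and the bar and whisker the mean ± SD (n = 3). The IFE-3 RIP libraries lie between 7.58% and 12.5%, above every other library, and GFP control replicate 3 (6.45%) lies apart from its group.

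Summed over the family, the mean scaled TPM was 103625 ± 26977 in the IFE-3 RIP and 29245 ± 9825 in the IFE-1 RIP (SD, n = 3), a ratio of 3.54. In a limma fit on log2(scaled TPM + 1), 65 members passed the filter of 1 TPM in 3 libraries, all but the H3 gene his-42. Their median log2 difference, IFE-3 over the IFE-1 RIP, was 1.55, against -0.02 over the 12099 genes tested. It was above 0 for 61 of the 65 members and ranged from -0.25 to 2.66. All IFE-3 RIP libraries lay above all IFE-1 RIP libraries for 55 members (all genes, 14.1%), and 37 were called higher at an adjusted p under 0.05 (all genes, 1.40%), with none called lower. Since this contrast chose the family, nothing is read from these counts. With IFE-3 replicate 1, IFE-3 replicate 2 or IFE-1 replicate 2 left out, 0 members were called. Over all genes 0.0593%, 0.0419% and 0.0168% were then called in either direction. Without IFE-1 replicate 1 the number of members was 1 (all genes, 0.0341%). Without IFE-1 replicate 3 it was 23 (all genes, 0.264%), and without IFE-3 replicate 3 it was 41 (all genes, 7.61%). The medians without a library stayed between 1.27 and 1.71.

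This ratio was unequal among the classes, which was not tested. Summed H2B genes were 4.18-fold and summed H3 genes 3.96-fold higher in IFE-3 than in the IFE-1 RIP, while the ratio was 3.16 for H4, 2.55 for H2A and 2.49 for the 6 remaining genes. The median log2 difference was 1.75 for the 15 H2B genes, 1.60 for 14 H3 genes, 1.33 for the 15 H4 genes and 1.02 for the 15 H2A genes. H2A, which pairs with H2B in the nucleosome, made up 8.51% ± 1.23 of the family in the IFE-3 RIP, 11.4% ± 0.870 in the IFE-1 RIP and 12.6% ± 0.585 of it in total RNA (SD, n = 3). H2B made up 40.5% ± 3.45, 35.2% ± 1.94 and 35.4% ± 0.435 in the same order. The 6 genes without a class, which count in the family total but in no class, made up 3.30% ± 0.462, 4.58% ± 0.172 and 4.98% ± 0.298. The H4 share was 29.5% ± 1.30, 32.8% ± 0.518 and 28.5% ± 1.39, and the H3 share was 18.2% ± 0.843, 16.1% ± 0.482 and 18.5% ± 0.164.

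H4 genes, which encode the partner of H3, held the largest log2 difference. His-67 on chromosome I measured 6049, 5228 and 3045 scaled TPM in the IFE-3 RIP replicates 1 to 3 and 515, 776 and 978 in the IFE-1 RIP. Total RNA gave 1153, 1221 and 1236, the GFP control RIP 381, 546 and 1372, and the mKate control RIP 230, 383 and 494. Each IFE-3 RIP library was above every library of the other groups, and each IFE-1 RIP library was below every total RNA library. The log2 difference between the RIPs was 2.66 ± 0.29 (SE), and the ratio of means was 6.31.

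His-64, the most abundant H4 gene, lies on chromosome IV from 11407116 to 11407427. It reached 9955, 8608 and 5513 scaled TPM in the IFE-3 RIP against 985, 1649 and 2437 in the IFE-1 RIP, a log2 difference of 2.31 ± 0.33 (SE). The H4 pair his-46 and his-56, on the same chromosome, matched it closely outside IFE-3 RIP. In IFE-1 RIP the pair measured 1024, 1690 and 2310 scaled TPM, and in total RNA its mean was 2234 ± 157, against 2495 ± 200 for his-64 (SD, n = 3). In the controls its means were 1637 (GFP) and 855 (mKate), against 1586 and 846 for his-64. In IFE-3 RIP, however, the pair reached only 4743, 4157 and 3131, each below every his-64 value there. Its log2 difference between the RIPs was 1.33 ± 0.28 (SE).

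The H4 set of his-10, his-14 and his-26 on chromosome II had the largest excess over total RNA in the family. It measured 944, 646 and 482 scaled TPM in the IFE-3 RIP and 124, 129 and 104 in total RNA, a ratio of means of 5.79 and a log2 difference of 2.48 ± 0.27 (SE). The IFE-1 RIP values were 119, 200 and 184. The GFP controls gave 184, 248 and 475, also above every total RNA library, and the mKate controls gave 109, 141 and 147. All IFE-3 RIP values of this set were above those of the other 4 groups. The lowest H4 gene, his-38 on chromosome X, measured 178, 187 and 130 scaled TPM in the IFE-3 RIP and 49.7, 96.6 and 113 in the IFE-1 RIP, without overlap and with a log2 difference of 1.00 ± 0.30 (SE).

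Among H3 genes, which carry many of the best-known histone tail marks, his-59 (chromosome IV, 7488249 to 7488659) led. It measured 5489, 4230 and 3005 scaled TPM in the IFE-3 RIP, 495, 796 and 961 in the IFE-1 RIP and 1261, 1249 and 1299 in total RNA. The GFP controls gave 378, 556 and 1176 and the mKate controls 318, 565 and 646. The IFE-3 RIP libraries were all above, and the IFE-1 RIP libraries all below, the total RNA libraries, and the controls overlapped IFE-1 RIP. The log2 difference between the RIPs was 2.52 ± 0.28 (SE). It was 2.27 ± 0.32 for the pair his-45 and his-55 and 2.12 ± 0.30 for his-63. His-42 was at 0.70 scaled TPM or less in every library and was not tested.

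H2B genes were the most abundant of the family. The pair his-58 and his-66 measured 13071, 12828 and 6562 scaled TPM in the IFE-3 RIP, 1544, 2520 and 2827 in the IFE-1 RIP and 3506, 3675 and 3837 in total RNA. The GFP controls gave 1151, 1796 and 3530 and the mKate controls 758, 1624 and 1834. Again every IFE-3 RIP library lay above all others, and the log2 difference between the RIPs was 2.22 ± 0.31 (SE). His-48 (2.18 ± 0.29) and his-62 (2.09 ± 0.34) followed closely, and the lowest H2B gene, his-8, still differed by 1.77 ± 0.30. At the other end of the class, the pair his-29 and his-34 had a log2 difference of 0.47 ± 0.27 (SE), and its RIP libraries overlapped.

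Among the H2A genes classed by length, the pair his-47 and his-65 was highest. It measured 2679, 2749 and 2041 scaled TPM in the IFE-3 RIP, 511, 878 and 1182 in the IFE-1 RIP and 1470, 1581 and 1739 in total RNA. The GFP controls gave 412, 586 and 1610 and the mKate controls 197, 419 and 686. The RIPs and total RNA did not overlap, with total RNA between the RIPs, and the log2 difference between the RIPs was 1.62 ± 0.28 (SE). His-61 and his-7 had ratios of means of 2.88 and 2.44. His-57, for which no class was read, exceeded the his-47 pair in each same-numbered library of both IFE RIPs. The lowest H2A pair, his-30 and his-33, measured 39.7, 45.5 and 49.2 in the IFE-3 RIP and 26.6, 47.9 and 50.3 in the IFE-1 RIP. These values overlapped, and the log2 difference was 0.16 ± 0.22 (SE).

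**Figure D2:**
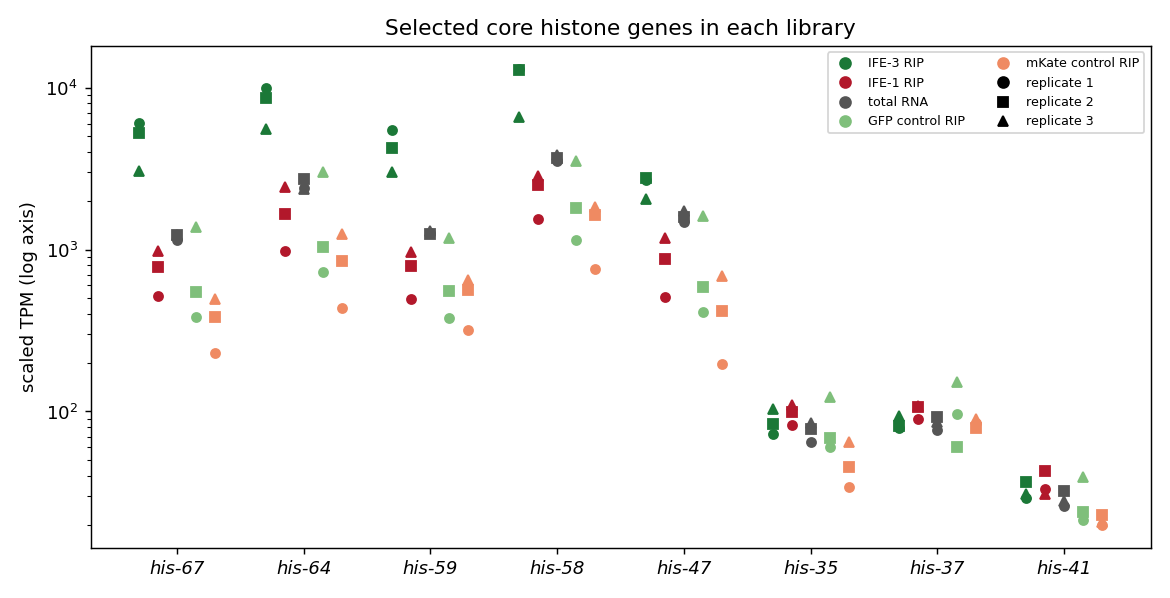
Scaled TPM (log axis) of 8 core histone genes in each library, coloured by group with marker shapes for the replicate number. For his-67, his-64, his-59, his-58 and his-47 the IFE-3 RIP libraries lie above every IFE-1 RIP library, and for his-35, his-37 and his-41 the RIPs overlap.

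Of the members without a standard length, his-35, his-36, his-37 and his-41 had log2 differences below 0, and his-39 and his-57 had differences above 0. His-35 measured 72.9, 84.1 and 103 scaled TPM in the IFE-3 RIP, 82.7, 99.4 and 109 in the IFE-1 RIP and 65.1, 78.4 and 84.98 in total RNA. His-37 measured 79.3, 81.7 and 93.4 in the IFE-3 RIP, 90.5, 107 and 108 in the IFE-1 RIP and 77.4, 92.3 and 85.6 in total RNA. For these genes, and for his-41 and his-36, the RIPs overlapped, and the log2 differences of his-35, his-37 and his-41 were -0.16 ± 0.17, -0.25 ± 0.12 and -0.12 ± 0.15 (SE). His-39, at 10.6, 8.58 and 3.64 scaled TPM in the IFE-3 RIP and 2.04, 3.61 and 5.94 in the IFE-1 RIP, overlapped as well, with a log2 difference of 0.80 ± 0.41 (SE).

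His-57 measured 3426, 3389 and 2551 scaled TPM in the IFE-3 RIP and 658, 1107 and 1521 in the IFE-1 RIP, without overlap and with a log2 difference of 1.59 ± 0.28 (SE). Its annotated span overlaps the kinesin gene klp-12, that of his-37 overlaps nstp-10 and that of his-41 overlaps C50F4.6. Another 5 members, his-4, his-8, his-16, his-20 and his-54, overlap noncoding genes. The libraries were not strand-specific, so reads of overlapping genes on opposite strands could not be separated. In all, the 59 tested genes of standard length ranged from 0.16 to 2.66, all above 0, whereas 2 of the other 6 were above 0.

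Of the histones outside the rule only his-24 and his-72 are given for comparison, so nothing is read about the others. The linker histone his-24 (H1) averaged 112 ± 22.6 scaled TPM in the IFE-3 RIP, 118 ± 30.2 in the IFE-1 RIP and 117 ± 15.96 in the lysate, the total RNA (SD, n = 3). The H3.3 variant gene his-72, a histone that is also deposited outside DNA replication, averaged 292 ± 23.7, 307 ± 55.4 and 275 ± 19.2 in the same order. Both overlapped between the RIPs and total RNA, and the log2 difference between the RIPs was -0.06 for each.

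The ratio also varied with the gene cluster. The highest cluster medians of the log2 difference, IFE-3 over the IFE-1 RIP, were 2.17 for his-63 to his-66 (chromosome IV, 11400415 to 11407427) and 2.17 for his-67 and his-68 on chromosome I. The neighbouring cluster with his-45 to his-48 and his-55 to his-58 (chromosome IV, 11324056 to 11341703) had a median of 1.90, and his-59 to his-62 (chromosome IV, 7485834 to 7488659) had 1.83. In total RNA the cluster with his-45 to his-48 made up 42.1% and his-63 to his-66 made up 20.0% of the family's TPM. The identical pairs his-47 with his-65 and his-58 with his-66 each span these neighbouring clusters. Their shares and medians thus rest in part on values that could not be told apart.

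Clusters on chromosome V came lower. The median was 1.69 for his-1 to his-4 (16040144 to 16042831), 1.37 for his-5 to his-8 with his-39 (8532715 to 8536716) and 1.29 for both the cluster of his-17 to his-22, his-27 and his-28 (8889488 to 8898539) and his-49 to his-54 (8847393 to 8854053). All 6 genes of his-49 to his-54 held values identical to genes of the cluster with his-17 to his-22. These equal medians are therefore not separate results. The 12 tested genes of the chromosome II cluster (13817760 to 13828697) had a median of 1.30. Lowest were his-29 to his-34 (chromosome IV, 8331044 to 8336340) at 0.47 and his-35, his-37 and his-41 (chromosome V, 9544659 to 9547607) at -0.16. Classes still differed inside a cluster, as in the chromosome II cluster with 2.03 ± 0.27 for the his-10 set (H4) and 0.76 ± 0.25 for the his-9 set (H3).

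**Figure D3:**
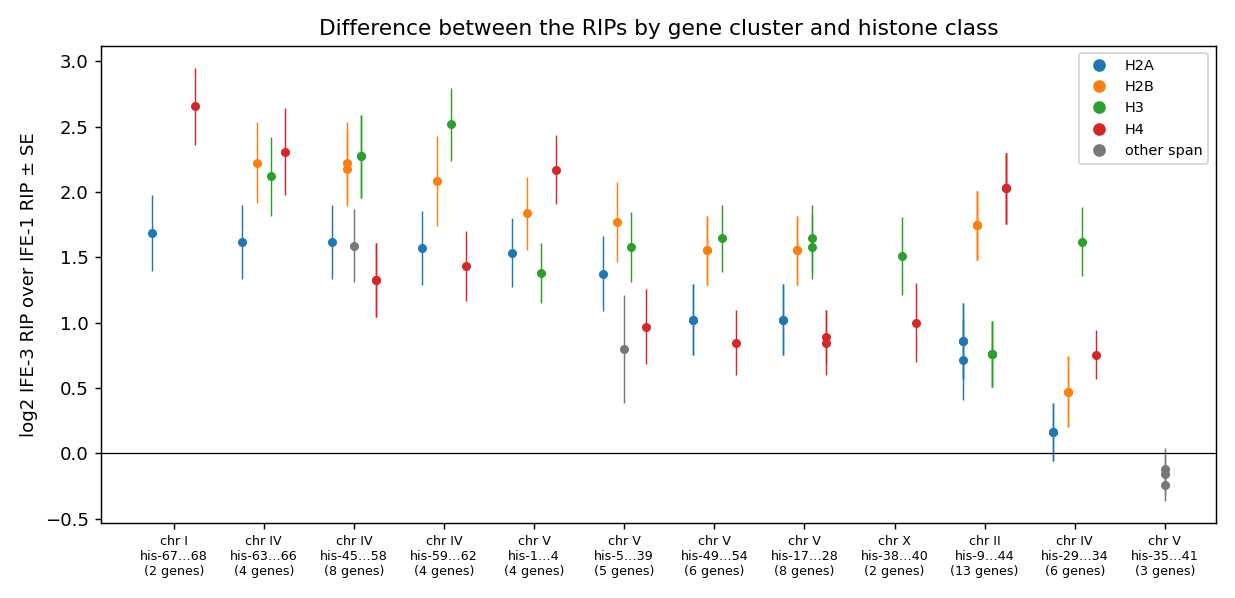
Log2 difference between the IFE-3 RIP and IFE-1 RIP (± SE, limma, 3 libraries per group) for each tested member, arranged by gene cluster and coloured by histone class. Identical copies within a cluster coincide, and those in different clusters repeat the same value. His-42 and his-36 are not drawn. Axis labels give the lowest and highest gene number of a cluster, which need not hold all numbers between. Values run from 2.66 (his-67) to -0.25 (his-37), and the cluster of his-29 to his-34 and that of his-35, his-37 and his-41 are lowest.

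Both IFE RIPs were also set against total RNA of the same strain, as a description. The family sum was 42894 ± 926 scaled TPM in total RNA (SD, n = 3), with IFE-3 RIP at 2.42 times and IFE-1 RIP at 0.682 times this level. Over 65 members the median log2 difference was 0.84 for IFE-3 RIP over total RNA (all genes, 0.03) and -0.42 for IFE-1 RIP over total RNA (all genes, -0.01). All IFE-3 RIP libraries were above all total RNA libraries for 58 members (all genes, 16.2%), and 29 members were called higher (all genes, 5.58%). All IFE-1 RIP libraries were below all total RNA libraries for 26 members (all genes, 19.6%) and above them for 2 (all genes, 13.1%). With limma, 1 member was called higher in the IFE-1 RIP (all genes, 4.12%) and none lower. With a filter of 5 TPM 1 was called higher and 8 lower (all genes called in either direction, 22.8%). For 24 members all IFE-3 RIP libraries lay above and all IFE-1 RIP libraries below every total RNA library (all genes, 1.24%). The comparisons share the total RNA libraries.

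The single member called higher in the IFE-1 RIP was the H4 gene his-31. It measured 122, 185 and 190 scaled TPM in the IFE-1 RIP, 89.0, 104 and 84.3 in total RNA and 307, 271 and 244 in the IFE-3 RIP. Both RIPs were above total RNA without overlap, with log2 differences of 0.80 ± 0.19 (SE) for IFE-1 RIP and 1.56 ± 0.19 for IFE-3 RIP. H3 genes were furthest below total RNA in the IFE-1 RIP, with a median log2 difference of -0.78 and none of 14 above 0. Without IFE-1 replicate 1 the median of all members, IFE-1 RIP over total RNA, was -0.18, and without replicate 3 it was -0.67. In these settings 3 members were called higher (all genes called in either direction, 6.63%) and 11 were called lower (6.28%), respectively. Without IFE-1 replicate 2 or any single total RNA library 0 were called (all genes, 4.32% to 7.25%). Members called higher in the IFE-3 RIP over total RNA ranged from 8 to 32 with a library left out (all genes called in either direction, 2.68% to 13.7%). The count was 10 or fewer without IFE-3 replicate 1 or 2 or without total RNA replicate 1 or 2, and 11 without total RNA replicate 3. Over all genes 5.85%, 2.68%, 3.22%, 3.52% and 5.13% were called in these settings, against 11.2% in the main fit.

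The tag-only control RIPs, whose libraries took no part in choosing the family, had mean levels in the same order as the IFE RIPs, but no member passed the test. The mean of the GFP controls was above that of the mKate controls for 65 of 65 members, with a median log2 difference of 1.30 (range 0.18 to 1.95) against 0.00 over 13183 genes. After Benjamini-Hochberg adjustment limma called 0 members, while 0.774% of all genes were called. At an unadjusted p under 0.05 there were 41 of 65 members and 16.2% of all genes. A fit of all 15 libraries called 15 members higher (all genes in either direction, 3.44%), and TPM as deposited gave 3 (1.30%). The lowest adjusted p, 0.0643, belonged to his-31, at 141, 149 and 297 scaled TPM in the GFP controls and 30.0, 58.3 and 67.1 in the mKate controls, a log2 difference of 1.89 ± 0.37 (SE) with no overlap. The GFP controls lay above the mKate controls without overlap for 27 of 65 members (all genes, 8.43%). Without GFP control replicate 3 the median was 0.72.

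The members furthest apart between the IFE RIPs were not those furthest apart between the controls. For his-59 the GFP over mKate control difference was 0.36 ± 0.44 on the log2 scale (SE; limma adjusted p = 0.68), and for his-67 it was 0.90 ± 0.48 (adjusted p = 0.37), both with overlapping libraries. By class the control difference had medians of 1.57 for H2B, 1.36 for H3, 1.33 for H2A and 1.08 for H4. By cluster it was 1.83 for his-29 to his-34, the cluster with a median of 0.47 between the IFE RIPs, and 0.68 for his-63 to his-66, with 2.17 between the IFE RIPs.

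**Figure D4:**
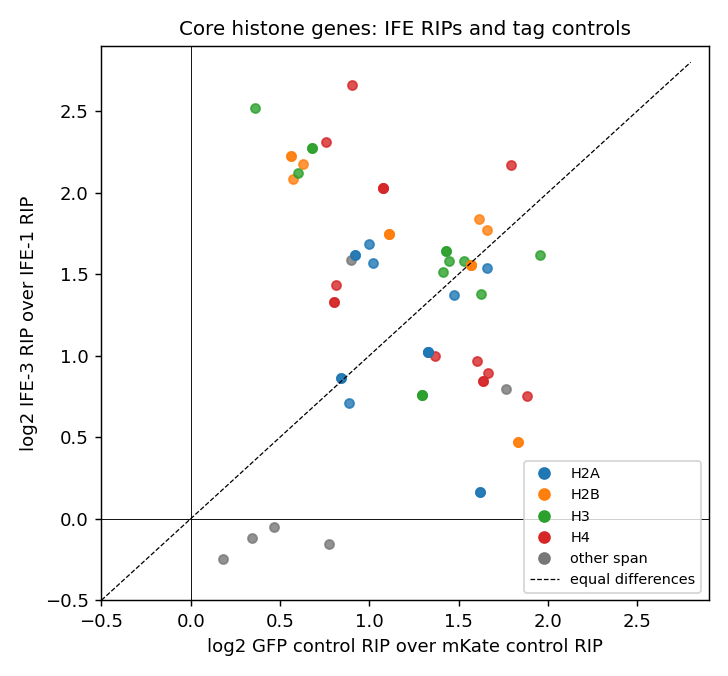
Log2 difference between the IFE-3 RIP and IFE-1 RIP (vertical) against that between GFP control RIP and mKate control RIP (horizontal) for each tested member, coloured by class; the dashed line marks equal differences. All members lie right of 0 on the control axis, and his-59, his-67 and his-64 lie far above the line.

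The mKate control RIP lay below total RNA in core histone level. Its family sum was 0.351 times that of total RNA and the median log2 difference was -1.69, with all mKate controls below all total RNA libraries for 58 of 65 members (all genes, 19.8%). No member passed the limma test after adjustment, while 1.17% of all genes were called. At an unadjusted p under 0.05 there were 49 of 65 members and 20.9% of all genes. The absence of calls depended on the setting: a fit of all 15 libraries called 37 members lower (all genes in either direction, 8.16%), a filter of 5 TPM gave 9 (2.94%) and TPM as deposited gave 8 (6.11%). The lowest adjusted p was 0.0528, for the H2B gene his-8 at -2.22 ± 0.44 (SE), which measured 16.8, 33.7 and 40.8 scaled TPM in the mKate controls and 136, 152 and 123 in total RNA. The 3 members above 0 were his-10, his-14 and his-26, which share their values.

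The GFP control RIP lay nearer to total RNA, with a median log2 difference of -0.39 and 19 of 65 members above 0. No member passed the limma test, while 1.04% of all genes were called. At an unadjusted p under 0.05 there were 8 of 65 members and 18.1% of all genes. The GFP controls were above total RNA without overlap for 4 members (all genes, 9.37%), his-10, his-14, his-26 and his-31, and below it for another 4 (all genes, 12.6%), his-45, his-55, his-59 and his-63. The lowest adjusted p was 0.107, for the his-10 set at 1.22 ± 0.34 (SE; limma). Without GFP control replicate 3 the median was -0.92, and without replicate 1 it was -0.04. With TPM as deposited it was 0.29, where the median over all genes was 0.55.

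Each RIP was then set against the control on the same beads. IFE-3 RIP exceeded the GFP control RIP by a median log2 difference of 1.27 (all genes, 0.02), above 0 for 64 of 65 members and without overlap for 34 (all genes, 11.7%). IFE-1 RIP exceeded the mKate control RIP by 1.20 (all genes, 0.01), above 0 for 65 of 65 members and without overlap for 30 (all genes, 16.7%). In these limma fits 0 members were called for either (all genes called higher, 0.0653% and 0.311%). At an unadjusted p under 0.05 there were 39 members (all genes, 12.5%) and 36 members (all genes, 27.4%). When replicate numbers entered as a block, 51 members were called higher in the IFE-1 RIP than in its control (all genes, 8.55%) and 0 in the IFE-3 RIP against its control. Without mKate control replicate 3, and with no block, the number for IFE-1 RIP was 25 (all genes called in either direction, 12.7%). Without mKate control replicate 1 the median was 0.79. For the IFE-3 RIP over its control the median without GFP control replicate 3 was 1.80.

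The difference of these differences, IFE-3 over GFP control minus IFE-1 over mKate control, had a median of 0.01 over the 65 members, ranged from -1.47 to 2.14 and was above 0 for 34. Over 14308 genes its median was -0.01, with quartiles of -0.44 and 0.39 and the 5th and 95th percentiles at -1.18 and 1.02. Without GFP control replicate 3 the median over the members was 0.57, without mKate control replicate 1 it was 0.46, and without GFP control replicate 1 it was -0.33. His-59 (2.14) and his-67 (1.74) lay above that 95th percentile, as did others such as his-45 (1.58) and his-48 (1.54). The pairs his-30 with his-33 (-1.47) and his-29 with his-34 (-1.37) lay below the 5th percentile. His-59 and his-67 were named for their difference between the IFE RIPs, which is part of this value, so nothing is read from their place. The cluster medians were 1.52 for his-63 to his-66, 1.21 for his-67 and his-68, 1.11 for his-45 to his-48 with his-55 to his-58 and 1.05 for his-59 to his-62. The cluster of his-29 to his-34 had a median of -1.37. By class the medians were 0.51 for H4, 0.21 for H2B, 0.10 for H3 and -0.14 for H2A.

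Replicate numbers did not give equal ratios. The family sum was 6.65, 3.67 and 1.92 times higher in IFE-3 than in the IFE-1 RIP for replicate numbers 1, 2 and 3, and above it for 62, 60 and 60 of 66 members. Over the GFP control RIP, IFE-3 RIP was 7.89, 5.12 and 1.36 times higher, with 64, 66 and 35 of 66 members above it. IFE-1 RIP over the mKate control RIP varied less, at 2.26, 1.94 and 1.83 times, and the GFP over mKate control ratios were 1.90, 1.39 and 2.57. The control-corrected median was 0.76, 0.46 and -0.97 for the 3 numbers, above 0 for 54, 48 and 8 of 65 members. Replicate 3 held both the lowest IFE-3 RIP share (7.58%) and the highest GFP control share (6.45%) of core histone RNA. It also held the highest share in the IFE-1 RIP (3.79%), total RNA (3.53%) and the mKate control RIP (2.19%). The part of these libraries in the results was not tested.

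**Figure D5:**
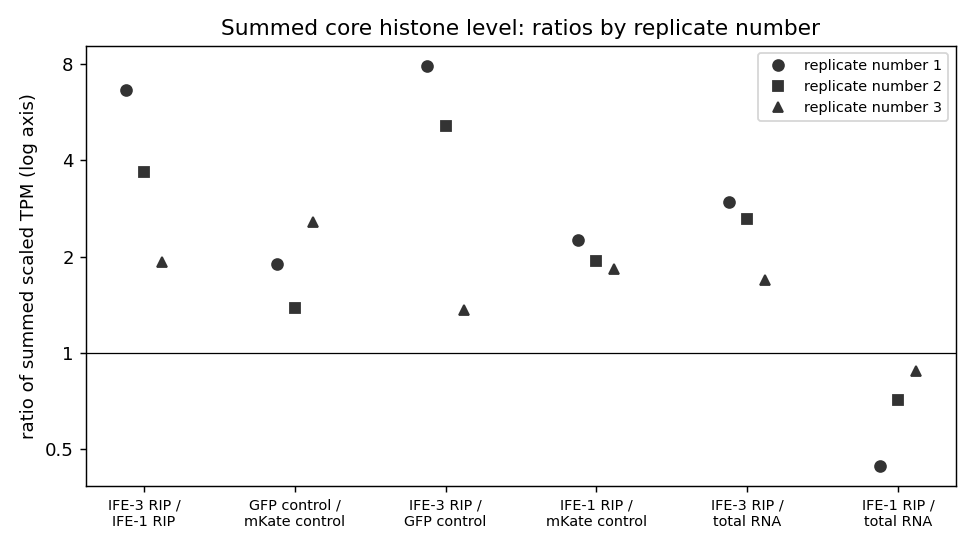
Ratios of the summed scaled TPM of the core histone genes (log axis) between groups, for libraries with the same replicate number (3 points per ratio). IFE-3 RIP over the IFE-1 RIP gives 6.65, 3.67 and 1.92, and IFE-3 RIP over the GFP control falls lowest for number 3, at 1.36.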

How the data were processed

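Per the labels, whole worms of 3 strains gave 15 rRNA-depleted, non-directional libraries in 5 groups of 3. The authors deposited TPM per gene and library. Per the submitters' processing notes the tools were R 4.4.1, kallisto 0.48.0 and DESeq2 1.34.0 and the build was WBcel235, without their roles. The sources used here give neither the annotation nor the effective lengths of these short transcripts, and the way reads of near-identical copies are split can change single values.

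Libraries were divided by the median ratio to each gene's geometric mean, with factors over the libraries of a fit, or over all 15 for single-library values, sums and control-corrected differences. Genes that reached 1 TPM in 3 libraries or more were fitted on log2(scaled TPM + 1) with limma 3.58.1 (R 4.3.3, lmFit, eBayes with trend), on which scale changes of low genes are understated. P-values are two-sided and adjusted by Benjamini-Hochberg over all genes tested, and called means an adjusted p under 0.05. Total RNA and both IFE RIPs shared a fit of 9 libraries, the controls and total RNA another, and each RIP and its control a fit of 6. Fold ratios are of mean scaled TPM. Errors of values are SD (n = 3) and errors of log2 differences are SE. Clusters join genes less than 20 kb apart.

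The members, gene lists and tests were chosen with earlier results of these data known. Named genes are, per class, the 3 most abundant members and the least abundant, the members with the 3 highest and 3 lowest log2 differences, his-59 and his-67, one symbol standing for an identical set. Others (the his-10, his-9 and his-29 sets, his-31) were named after their values were seen. Lists needing other symbols were not used, since the IDs carry none. The fits were tested on simulated data. Same-numbered libraries deviated together (r = 0.158, 0.12 and 0.276 between IFE-3 and IFE-1 RIP, 0.143, 0.139 and 0.217 between IFE-3 RIP and its control, 0.13, 0.115 and 0.27 between IFE-1 RIP and its control), so the numbers were taken as pairing there, from the data and not the labels. The labelled batch (RFP pulldown, GFP pulldown, lysate) coincides with the group unless a RIP is set against its own control. Alternatives were the scaling, pseudocount, filter, replicate block, all libraries in a single fit, identical members counted once, and leaving out each library.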

Additional observations from a re-analysis of the deposited data

Results flagged for a closer look

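For 24 members all 3 IFE-3 RIP libraries lay above, and all 3 IFE-1 RIP libraries below, every total RNA library, a pattern shown by 1.24% of the 12099 genes tested. These genes stood out because the IFE RIPs departed from total RNA in opposite directions. The difference was not tested, it rests on total RNA libraries that both comparisons share, and the family was chosen on the difference between the IFE RIPs.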

How the results depend on the processing

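The medians of the 8 comparisons kept their direction in 111 of 112 alternatives. The exception was GFP control RIP over total RNA, 0.29 with TPM as deposited (main -0.39), where all genes shifted to 0.55. The control-corrected median, 0.01, was below 0 in 8 of 14 alternatives chosen after seeing the data (-0.33 to 0.57 with a library left out, -0.10 with TPM as deposited). Counts of called members stayed within 1.5 times in 71 of 112 alternatives. With identical members counted once, 44 profiles were tested. Of these, 26 were called in IFE-3 over IFE-1 RIP (median 1.54, all genes called in either direction 1.52%). In IFE-3 RIP over total RNA 20 were called (median 0.88, all genes 11.2%).

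The counts that moved, in the order IFE-3 over IFE-1 RIP (37), IFE-3 RIP over total RNA (29), IFE-1 RIP over total RNA (1), IFE-3 RIP over GFP control (0), IFE-1 RIP over mKate control (0), GFP over mKate control (0), GFP control over total RNA (0) and mKate control over total RNA (0), are given by setting. Over all genes, in either direction, the main fits called 1.52%, 11.2%, 10.2%, 0.0898%, 0.474%, 0.774%, 1.04% and 1.17% in this order. All 15 libraries in a single fit gave 5, 5, 0, 17, 1, 15, 3 and 37 members. The shares of all genes were then 0.210%, 1.77%, 1.64%, 4.32%, 1.13%, 3.44%, 6.43% and 8.16%. Without a filter the first 3 gave 2, 13 and 0 (all genes, 0.0908%, 2.83% and 3.48%). TPM as deposited gave 56 for the second, 4 for the third, and 3, 4 and 8 for the last 3. The shares of all genes were 22.8%, 10.6%, 1.30%, 22.2% and 6.11% in that order. A filter of 5 TPM gave 9 for the third (8 of them lower), 8 for the fifth and 9 for the last (all genes, 22.8%, 5.61% and 2.94%). A pseudocount of 0.1 gave 3 for the third (2 lower, all genes 10.3%). All members called in the last comparison were lower. With a replicate block the third gave 2, the fifth 51 and the last 17, the first 35 and the second 28, and the block changed no other count. Leaving out a library gave 0 to 41, 8 to 32, 0 to 11 (the 11 lower), 0 to 0, 0 to 25 and 0 to 1 for the first 6. Over all genes the ranges were 0.0168% to 7.61%, 2.68% to 13.7%, 4.32% to 7.25%, 0.00% to 2.21%, 0.00% to 12.7% and 0.0390% to 3.41%. The causes were not tested. Depth is unknown, so no counting error could be given, and 3 libraries a group limit every test: an exact permutation test of 3 against 3 cannot go below 0.1.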

Other observations

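Across the 63 members that averaged 10 scaled TPM or more, the log2 difference between IFE-3 and IFE-1 RIP rose with the total RNA level (Spearman rho 0.570). This is a description across genes that share libraries and, in part, identical values.

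Among 3320 genes outside the family compared over the 15 libraries, WBGene00009878 (r = 0.948) and WBGene00200244 (r = 0.942) had the profiles most like that of the core histone genes. The latter averaged 327 ± 94.7 scaled TPM in the IFE-3 RIP, 100 ± 28.1 in the IFE-1 RIP, 139 ± 10.96 in total RNA, 60.1 ± 35.4 in the GFP control and 26.1 ± 6.84 in the mKate control (SD, n = 3). The table pairs no symbols with these IDs.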
